A study of Saccharomyces cerevisiae with 18 samples.

Results

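The identifiers described here are the 200 of S. cerevisiae with the most antisense reads among those that had more antisense than sense reads. Of 6692 identifiers counted, 6664 are named as Y genes, and 876 of these had a mean antisense count above the mean sense count over all 18 libraries. The 200 with the highest mean antisense count among the 876 were taken, so that a high antisense count and a low sense count are what chose them and are not findings. The last identifier taken, YJR114W, had a mean of 147.5 antisense reads per library, as did the next one, YNL228W, and the order of the counted identifiers decided between them. PRY3, EMI1 and GAL4 were closest to the other limit, with 1.20, 1.31 and 1.38 antisense reads per sense read, while MMS4 and FUS1, with 0.896 and 0.736, were outside it.

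Newly synthesized RNA (nsRNA) was sequenced from 3 strains in which proteins carry an auxin-inducible degron (AID), a tag through which the auxin 3-IAA brings about degradation of the protein. All are W303 strains that express the auxin receptor OsTIR1 from the GPD1 promoter, with Spt20-3xHA-IAA7 in Spt20-AID, the Med16/Spt20-AID strain carrying Med16-3V5-IAA7 as well, and the third strain, Med16/Taf13-AID, carrying Med16-3V5-IAA7 and Taf13-3xHA-IAA7. Each culture, grown in YPD, was split and received 0.5 mM 3-IAA or DMSO for 30 min, after which 4-thiouracil labeled new RNA for 6 min. There were 3 libraries for each of the 6 groups, given below in the order of their replicate number. Spt20 is a core subunit of the coactivator SAGA, Med16 belongs to the tail of Mediator, and Taf13 is a subunit of TFIID. Every strain carried degron tags, and what 3-IAA does by itself cannot be told apart from depletion. The Med16/Taf13-AID libraries carry another sequencing project code, so strain and run cannot be told apart there.

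Antisense RNA is transcribed from the strand opposite to a gene. In yeast it often arises where a transcript reads past its end into a convergent neighbor, or where RNA polymerase II starts in the nucleosome-free region behind a gene, and much of it is removed by the nuclear exosome. At some loci it is known to act, as at IME4, where antisense transcription in haploid cells keeps the gene silent. A second kind of identifier is a dubious reading frame, one that lies on the opposite strand of an expressed gene and is not thought to encode a protein. A read of the expressed gene is then counted as antisense for the dubious frame and as sense for the gene, so that both counts hold the same molecules.

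Of the 200 members, 167 are not in the R64 annotation and have no coordinates in it, so none of their sequences is shown. Sequences at some of the annotated members are given here from the RefSeq R64 assembly, which has the sequence of the sacCer3 build of the counts. The first is the whole of RRT15 (YLR162W-A), the identifier with the most antisense reads, at chrXII:490406-490594 on the plus strand. Capitals mark the bases that are the same as the complement of the 25S ribosomal RNA gene RDN25-1, which lies on the minus strand of chromosome XII between 451786 and 455181.
RRT15: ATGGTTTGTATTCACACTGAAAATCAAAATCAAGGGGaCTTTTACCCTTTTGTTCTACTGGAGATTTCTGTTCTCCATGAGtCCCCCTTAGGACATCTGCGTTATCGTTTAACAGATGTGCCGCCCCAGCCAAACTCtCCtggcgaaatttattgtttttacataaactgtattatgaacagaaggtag
Of its first 140 bases, 137 were the same (97.9%), so the antisense strand of this stretch of RRT15 reads as 25S rRNA. The second shows a short overlap of an identifier with a gene. The 12 bases shared by YLR302C, on the minus strand, and by the start of MET17, on the plus strand, are in capitals within chrXII:732482-732583.
YLR302C and MET17: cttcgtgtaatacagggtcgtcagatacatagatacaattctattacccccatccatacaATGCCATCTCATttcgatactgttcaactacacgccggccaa
MET17 encodes a sulfhydrylase of methionine synthesis, and the capitals begin with its start codon. YLR302C is 363 bases long, so most of it lies outside the annotated MET17.

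The other sequences belong to members that have no known overlap of this kind or whose antisense RNA is annotated. IME4, which encodes the mRNA N6-adenosine methyltransferase of meiosis, lies at chrVII:142246-144048 on the plus strand, wholly inside the annotated antisense RNA RME2 on the minus strand (chrVII:141898-144120). The 250 bases after the IME4 stop codon, chrVII:144049-144298, are shown since they hold 1 match, in capitals from base 159, to the motif of the mating-type repressor a1-α2, TGT and TACATCA with 7 bases between them.
IME4 downstream: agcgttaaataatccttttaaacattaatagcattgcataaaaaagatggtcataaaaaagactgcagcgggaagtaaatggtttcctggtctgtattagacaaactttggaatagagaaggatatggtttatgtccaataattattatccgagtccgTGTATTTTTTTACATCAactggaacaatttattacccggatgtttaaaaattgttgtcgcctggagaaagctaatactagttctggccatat
Searched on both strands, this motif was present in 5 of 5985 windows of the same length behind genes (0.0835%). TMN2, which encodes an endosomal membrane protein, lies at chrIV:669016-671034 on the minus strand, and the 250 bases behind it (chrIV:668766-669015, minus strand) hold TATAAA once, on the antisense strand, shown as TTTATA in capitals.
TMN2 downstream: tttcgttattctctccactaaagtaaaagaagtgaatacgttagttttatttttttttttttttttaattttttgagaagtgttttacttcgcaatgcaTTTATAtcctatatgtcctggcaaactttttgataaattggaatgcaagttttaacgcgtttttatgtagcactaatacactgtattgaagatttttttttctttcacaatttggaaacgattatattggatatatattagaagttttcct
TATAAA was found on either strand in 3366 of the 5985 windows (56.2%) and in 14 of the 33 windows behind annotated members. HPF1 and CSS1, which encode related cell wall glycoproteins, share their longest identical run, 174 bases, of which the first 120 are shown as they stand in HPF1 (chrXV:29199-29318, minus strand).
HPF1 and CSS1 shared: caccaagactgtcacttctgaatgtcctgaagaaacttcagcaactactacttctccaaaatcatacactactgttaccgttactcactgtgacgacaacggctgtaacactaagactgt
Reads that map to both genes are left out of the counts, so such runs may add fewer reads to HPF1 and CSS1. How many reads were left out for this reason was not tested.

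Of the 200 identifiers, 33 are in the R64 annotation and 167 are not. For 166 of the 167, an annotated gene with an adjacent systematic number lies on the opposite strand. Where there were several (69 identifiers had exactly 1), the gene with the most sense reads was taken as the neighbor. It is called the gene opposite the identifier below, and whether they overlap could not be read from the annotation. Of the 33 annotated members, 13 overlap a feature on the opposite strand, 5 of them over their whole length, as SLM6 does on REI1, VAM10 on VPS5 and GAL4 on the annotated RNA YNCP0002W. The other 20 have no overlap, among them HPF1, CSS1, FET4, TMN2, PRY3, CRF1, NDT80 and SMK1. Mean antisense counts of members spanned 147.5 to 40241, with a median of 252, and their mean sense counts spanned 0.0556 to 234, with a median of 1.28. These are reads, not corrected for length. For 172 members the mean sense count was under 10, the limit for testing, and 28 could be tested on the sense strand, 15 annotated without overlap, 2 annotated with overlap and 11 not annotated. All 200 could be tested on the antisense strand.

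**Figure D1:**
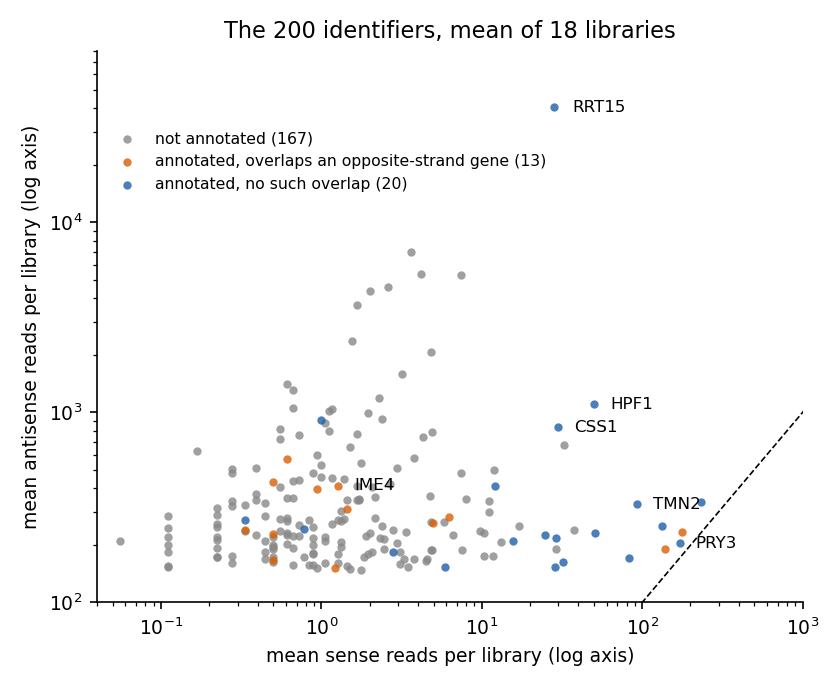
Mean sense reads (horizontal, log axis) against mean antisense reads (vertical, log axis) of each of the 200 identifiers over 18 libraries, by annotation. The dashed line marks equal counts, close to which PRY3 lies, and RRT15 stands apart with 40241 antisense reads.

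Between 874975 and 6189719 sense reads and between 79234 and 376183 antisense reads were counted per library, and antisense reads came to 5.98 to 9.24 for every 100 sense reads. Members held 54.4% to 72.0% of all antisense reads, and RRT15 alone held 13.8% to 30.1%. The antisense share was also taken in the 100 most expressed annotated genes that overlap no opposite-strand feature. Genes set beside a member as its opposite-strand gene were left out of these 100. Their median antisense share was 0.0433% to 0.163% of the sense reads, and the median sense share of members was 0% to 0.592% of their antisense reads. Values below are reads divided by the size factors of the study's Schizosaccharomyces pombe spike-in. The factors set the common shift of all identifiers, so a trimmed-mean (TMM) scaling of the sense counts, which brings the median gene near 0, is given beside each count. The median change of the 5567 genes tested on the sense strand was 0.38 (log2) in Spt20-AID, 0.31 in Med16/Spt20-AID and -1.68 in Med16/Taf13-AID with the spike-in, and 0.016, 0.018 and -0.021 with TMM. SPT20 itself, whose protein and not its mRNA is the target, had 439.5 ± 54.1 reads with 3-IAA and 266 ± 12.9 with DMSO in Spt20-AID (SD, n = 3). Spt20-AID pair 3 stood apart: the median change of members was 0.61 in that pair, against -0.018 and -0.074 in the other 2. For all identifiers it was 0.73, against 0.27 and 0.17.

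The question of the first comparison is what depletion of Spt20 alone does to antisense reads. In Spt20-AID, 48 members were higher with 3-IAA and 23 were lower (edgeR quasi-likelihood test, Benjamini-Hochberg adjusted p under 0.05), where 24.7% and 4.72% of the 2053 identifiers tested were called in these directions. As shares of the members these are 24.0% and 11.5%, and the median change was 0.17 for members and 0.41 for all 2053. Members had mean antisense counts of at least 147.5, and the 2053 of at least 10. A change of the same size is thus called more readily in members, here and in the antisense comparisons below. With TMM scaling 5 members were higher and 76 lower, beside a background of 5.21% and 11.7%. Without replicate 3 the counts were 4 and 35, for which the shares of all tested are not given. Members thus divided into both directions, and the split changed with the scale and with pair 3. The share of members called higher was near that of all tested. All identifiers were shifted in pair 3 as well, with a median of 0.73, against 0.27 and 0.17 in pairs 1 and 2. The change with pair 3 is thus not shown to be particular to members. In bulk libraries scaled by a spike-in, fewer cells and less RNA per cell cannot be told apart.

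The 3 largest decreases in Spt20-AID were on identifiers beside genes of transport, thiol metabolism and the cell wall. YFR056C, opposite IRC7, which encodes a cysteine β-lyase, had 73, 58.1 and 76.8 normalized antisense reads with 3-IAA, against 190.5, 171 and 149 with DMSO (log2 fold change -1.30 ± 0.18, SE, adjusted p = 3.6e-10). All 3-IAA libraries were below all DMSO libraries. YDR509W, opposite the glutamine permease gene GNP1, had 162, 139.5 and 215 antisense reads with 3-IAA, against 431, 369 and 256 with DMSO (log2 fold change -1.04 ± 0.17, SE, adjusted p = 5.3e-08). YMR307C-A, opposite GAS1, which encodes a β-1,3-glucanosyltransferase of the cell wall, had 279.8, 266 and 381 with 3-IAA, against 635, 633 and 492 with DMSO (log2 fold change -0.93 ± 0.16, SE, adjusted p = 3.5e-07). In both, again, the groups were apart. Here and in the sets of largest changes below, members were taken for called changes with the same direction in all 3 pairs. That their groups were apart thus follows largely from the choice and is not a further result. How often the groups of other identifiers were apart is not given. The sense reads of IRC7, GNP1 and GAS1 changed by -1.43, -1.001 and -1.03 (log2).

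The 3 largest increases in Spt20-AID were at SPO75, PRY3 and YGL218W. SPO75, a gene of sporulation, had 98.5, 96.8 and 146 antisense reads with 3-IAA, against 56.7, 80.5 and 57.2 with DMSO (log2 fold change 0.82 ± 0.19, SE, adjusted p = 2.7e-04), and did not pass without replicate 3 (0.53, adjusted p = 0.073). PRY3, which encodes a sterol-binding cell wall protein, had 165, 147 and 164 antisense reads with 3-IAA, against 109.7, 102 and 68.2 with DMSO (log2 fold change 0.78 ± 0.18, SE, adjusted p = 2.7e-04). YGL218W, opposite MDM34, which encodes a subunit of the tether between the endoplasmic reticulum and mitochondria, had 335, 287 and 344 with 3-IAA, against 221, 208 and 158 with DMSO (log2 fold change 0.72 ± 0.16, SE, adjusted p = 2.6e-04). In all of them the 3-IAA libraries were above the DMSO libraries. MDM34 sense reads changed by 0.72 and those of MMM1, the gene 73 bases behind SPO75 and another subunit of the same tether, by 0.63.

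In Med16/Spt20-AID, where Med16 was depleted together with Spt20, 61 members were higher and 33 lower, beside 32% and 5.94% of the 2053 tested. These are 30.5% and 16.5% of the members, with a median change of 0.28 for members and 0.38 for all. TMM scaling gave 11 higher and 51 lower (background 11.5% and 11.4%), and a fit of this strain's libraries alone gave 107 higher. Without replicate 1, 2 or 3, 31, 8 or 17 were higher and 23, 21 or 20 lower. For the strain's own fit and the fits without a replicate the shares of all tested are not given. Members called higher in both this strain and Spt20-AID numbered 26, which is 54.2% of those in Spt20-AID and 42.6% of those in Med16/Spt20-AID. Members called lower in both numbered 20 (87.0% and 60.6%), and 1 member, TMN2, was called in opposite directions, its call in Spt20-AID being lost without replicate 3. Of all 2053 identifiers 285 were higher in both (56.1% and 43.4%), 64 were lower in both (65.98% and 52.5%) and 6 were called in opposite directions.

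The largest decreases in Med16/Spt20-AID were at YDL023C, YOL150C and YDR509W. YDL023C, opposite GPD1, which encodes the glycerol-3-phosphate dehydrogenase of osmotic adaptation, had 247, 295 and 252 antisense reads with 3-IAA, against 1158, 1176 and 1128 with DMSO (log2 fold change -2.12 ± 0.16, SE, adjusted p = 1.1e-35). GPD1 itself had 813, 888 and 773 sense reads with 3-IAA, against 3553, 3581 and 3394 with DMSO. The reads on the identifier and those on the gene changed alike, by -2.12 and -2.09 (log2). YOL150C, opposite GRE2, which encodes a stress-induced methylglyoxal reductase, had 1238, 1160.0 and 1048 antisense reads with 3-IAA, against 3943, 3448 and 3440.4 with DMSO (log2 fold change -1.65 ± 0.15, SE, adjusted p = 5.1e-25). YDR509W had 118, 136 and 127 with 3-IAA, against 372, 327 and 349 with DMSO (log2 fold change -1.46 ± 0.17, SE, adjusted p = 7.8e-15). Groups did not overlap in any of the 3.

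The largest increases in this strain were at YLR154W-F, YAL042C-A and YKL147C. YAL042C-A had 397, 381 and 371 antisense reads with 3-IAA, against 243, 241 and 197 with DMSO (log2 fold change 0.76 ± 0.17, SE, adjusted p = 9.1e-05), while CDC24, its opposite-strand neighbor and the exchange factor of Cdc42, changed by 0.25. YKL147C had 306, 329 and 305 with 3-IAA, against 201, 194 and 177 with DMSO (log2 fold change 0.72 ± 0.17, SE, adjusted p = 3.4e-04), and AVT3, a gene of vacuolar amino acid export opposite to it, changed by 0.59. Both were higher in all 3-IAA libraries than in any DMSO library. YLR154W-F is described with the ribosomal DNA below.

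In Med16/Taf13-AID, 197 members were lower and 1 was higher, where 61.9% of the 2053 tested were lower and 1.17% higher. Since members were taken for high antisense counts, the shares of members and of all tested are not alike in power to call. The median change was -1.62 for members and -1.23 for all, with the quartiles of members at -1.81 and -1.38. Set beside the sense strand, the antisense values of members did not stand out. On that strand 98.2% of the 5567 genes tested were lower, with a median of -1.68, against 98.5% and -1.62 for members. TMM scaling, by which the median over all 2053 was 0.42, gave 17 lower and 31 higher, beside 3.17% and 26.5%. With that scaling 111 members were above 0 and 89 below, so the common direction in this strain rests on the spike-in. The largest decreases were at YGR228W, YGR259C and YDR526C. YGR228W, opposite SMI1, a regulator of cell wall synthesis, had 67.5, 66.9 and 52.7 antisense reads with 3-IAA, against 458, 379 and 372 with DMSO (log2 fold change -2.69 ± 0.20, SE, adjusted p = 2.5e-38). YGR259C, opposite the nicotinic acid permease gene TNA1, had 42.5, 36.6 and 52.7 with 3-IAA, against 215, 302 and 273 with DMSO (log2 fold change -2.59 ± 0.21, SE, adjusted p = 1.8e-31). YDR526C, opposite RBA50, whose product takes part in RNA polymerase II assembly, had 82.1, 51.7 and 63 with 3-IAA, against 370.2, 329 and 347 with DMSO (log2 fold change -2.42 ± 0.20, SE, adjusted p = 4.3e-31). The 3-IAA libraries were far below the DMSO libraries at all 3 identifiers. The 2 members not called were RRT15 and MUM3, and the 1 that was higher was TMN2.

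**Figure D2:**
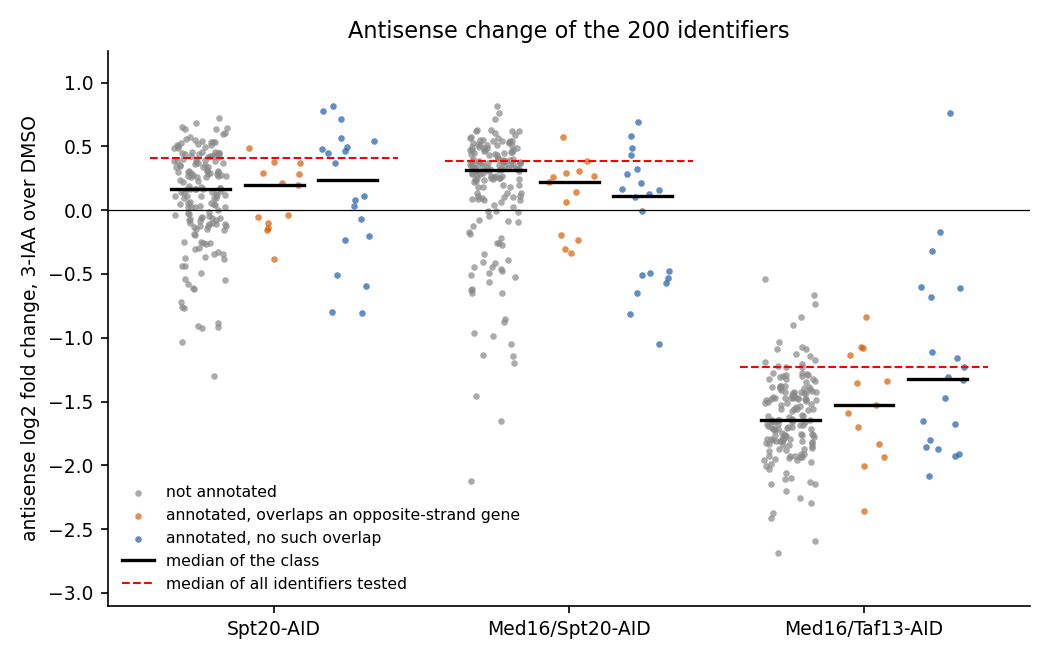
Antisense log2 fold change (3-IAA over DMSO, spike-in scaling) of each of the 200 identifiers in the 3 strains, as points by annotation, with the median of each class (black) and of all 2053 tested identifiers (red, dashed). Members spread to both sides of 0 in Spt20-AID and Med16/Spt20-AID, and all but TMN2 lie below 0 in Med16/Taf13-AID.

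The 10 members with the most antisense reads were, besides RRT15, identifiers that are not annotated and lie opposite highly expressed genes. These genes encode 3 enzymes of glycolysis (CDC19, GPM1 and PGK1), the translation factor eIF5A (HYP2), the Hsp70 chaperone SSA1, GRE2 and the ribosomal proteins of RPL10, RPS2 and RPL28. YAL037C-B, opposite the pyruvate kinase gene CDC19, had 4120.4, 3776 and 5279 antisense reads with 3-IAA in Spt20-AID, against 6498, 6501 and 5489.9 with DMSO (log2 fold change -0.49 ± 0.14, SE, adjusted p = 0.0056). It had 5755, 5021 and 4952 with 3-IAA in Med16/Taf13-AID, against 8014, 9703 and 7256 with DMSO (log2 fold change -0.67 ± 0.14, SE, adjusted p = 1.0e-05). All 3-IAA libraries were lower in both strains, but in Spt20-AID the call was lost without replicate 1 or 2 (adjusted p = 0.076 and 0.097). YEL034C-A, opposite HYP2, had 3415, 3295 and 3149 with 3-IAA in Med16/Spt20-AID, against 7279, 6584 and 6531 with DMSO (log2 fold change -1.05 ± 0.14, SE, adjusted p = 4.9e-11). YAL004W, opposite SSA1, was the only one of the 10 called higher in any strain with the spike-in, with 4583, 3445 and 4337 with 3-IAA in Spt20-AID, against 3120.0, 2365 and 2196 with DMSO (log2 fold change 0.69 ± 0.14, SE, adjusted p = 6.9e-05). In Med16/Spt20-AID it had 3844, 4193 and 4121 with 3-IAA, against 4052, 4504 and 4326 with DMSO, and the groups overlapped (log2 fold change -0.083 ± 0.14, SE, adjusted p = 0.65). In Med16/Taf13-AID 9 of the 10 were lower with the spike-in, with log2 fold changes of -0.67 to -1.95, and with TMM scaling 8 of these 9 had changes above 0, of 0.014 to 1.00, YAL004W being the exception.

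Members could be grouped by the gene opposite to them or, without overlap, behind them on the opposite strand. For 16 members this is a ribosomal protein gene, and none of them was called in Spt20-AID (median -0.073), where 24.7% of all tested were higher and 4.72% lower. In Med16/Spt20-AID 5 of the 16 were higher and none lower (median 0.30), those opposite RPL8B, RPL12B, RPP0, RPL12A and RPL36A, a share near the 32% of all tested. In Med16/Taf13-AID all 16 were lower (median -1.48), beside 61.9% of all tested and 98.2% of the genes tested on the sense strand. With TMM scaling 0, 0 and 4 of the 16 were higher and 13, 1 and 1 lower in Spt20-AID, Med16/Spt20-AID and the Med16/Taf13-AID strain, beside 5.21%, 11.5% and 26.5% of all tested higher and 11.7%, 11.4% and 3.17% lower. The same shares of all tested stand behind the counts of the next lists, whose 3 members each are too few to be read against them. For 3 members it is a glycolysis gene, of which 2 were lower in Spt20-AID (CDC19 and GPM1), 2 in Med16/Spt20-AID (GPM1 and PGK1) and 3 in Med16/Taf13-AID, where with TMM scaling all 3 were higher instead (median 0.93). The call at GPM1 in Spt20-AID was not made with the replicate block (-0.39, adjusted p = 0.062). For 3 it is a chaperone gene, SSA1, SSB1 or HSP10, the last encoding the mitochondrial co-chaperonin. HSP10 lies 204 bases behind its member, YOR019W, without overlap, as RPS28B of the ribosomal list lies 493 bases behind YLR264C-A. The members at SSA1 and HSP10, with changes of 0.69 and 0.72, were higher in Spt20-AID, none of the 3 was called in Med16/Spt20-AID, and all 3 were lower in Med16/Taf13-AID. With TMM scaling the same number, 2, was higher in Spt20-AID and 1 lower, 2 were lower in Med16/Spt20-AID, and in Med16/Taf13-AID 1 was higher and 1 lower.

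The question whether these antisense reads moved with the opposite-strand gene was addressed by setting the antisense change of each identifier beside the sense change of that gene. For the 166 identifiers that are not annotated, the 2 changes differed by a median of 0.061 (log2) in Spt20-AID, 0.040 in Med16/Spt20-AID and 0.065 in Med16/Taf13-AID, and lay within 0.25 of each other in 92.2%, 95.2% and 89.2% of them. In 141 of the 166 they lay within 0.25 in all 3 strains. For the 94 that have a tested same-strand neighbor, the distance to that gene was a median of 0.40, 0.33 and 0.32, and of 93 with both kinds of neighbor 83, 85 and 80 were closer to the opposite-strand gene. Antisense reads on these identifiers came to a median of 34.8 for every 100 sense reads of the opposite gene, from 6.17 to 127. Where an identifier overlaps the gene, reads are counted for both, so the 2 changes are not independent measurements.

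Annotated members were set beside their opposite-strand gene in the same way, as a description. For the 10 that overlap a tested gene, the 2 changes differed by medians of 0.074 in Spt20-AID, 0.059 in Med16/Spt20-AID and 0.081 in Med16/Taf13-AID. Some of these overlaps are short, with 2 bases at YPL261C, 12 at YLR302C and 47 at EMI1. For the 16 with no overlap and a tested gene behind them on the opposite strand, the medians were 0.35, 0.41 and 0.38. Among the identifiers that are not annotated, 12 were 0.5 or more from the opposite-strand gene in some strain. YPR123C, beside AXL1, a protease gene of mating pheromone processing, changed by -0.91 in Spt20-AID while AXL1 changed by 0.13, and YDR354C-A, beside the thioredoxin reductase gene TRR1, changed by -0.18 in Med16/Spt20-AID while TRR1 changed by -1.23. YGR064W, beside the vitamin H transporter gene VHT1, changed by -1.99 in Med16/Taf13-AID while VHT1 changed by -0.71. These were chosen after their values were seen. Each had 2 opposite-strand candidates by number, of which the one with the most sense reads was taken, so another gene may lie opposite.

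**Figure D3:**
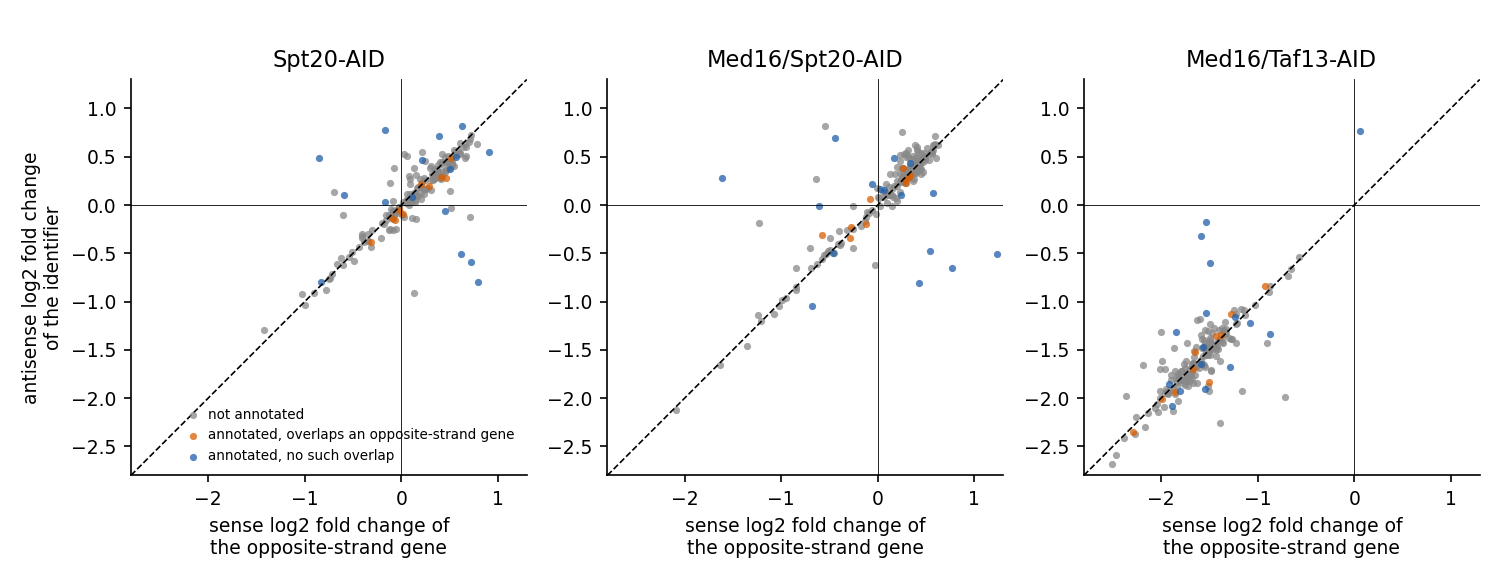
Sense log2 fold change of the opposite-strand gene (horizontal) against antisense log2 fold change of the identifier (vertical), 3-IAA over DMSO, 1 panel per strain and 1 point per identifier. Most identifiers that are not annotated (grey) or overlap a gene (orange) lie along the dashed line of equal change, and several of the annotated members without overlap (blue) lie off it.

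The sense strand of the members was tested in 28 of 200. In Spt20-AID 9 of them were higher with 3-IAA and 3 lower, where 54% and 8.08% of the 5567 genes tested were called in these directions. In Med16/Spt20-AID 9 were higher and 4 lower (background 46.2% and 10.3%), and in Med16/Taf13-AID none was higher and 23 were lower (0.0719% and 98.2%). With TMM scaling these counts were 5 and 8, 6 and 8, and 2 and 5, against backgrounds of 17.1% and 25.1%, 11.9% and 21.6%, and 15% and 14.6%. A member can pass this filter through the group in which it is high, so the 28 are not a sample of the 200. For 3 of them, YGR259C, YMR317W and YDL086C-A, the mean over the DMSO libraries alone was under 10, and their sense and strand values are a description only.

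For these 28 the antisense change was tested against the sense change of the same identifier, in one fit that compares strands within each library and so does not depend on the scale. The difference passed in 8 members in Spt20-AID, 4 with the antisense change above the sense change and 4 below, where 14.7% and 8.06% of the 1501 identifiers tested were called. In Med16/Spt20-AID it passed in 12, 3 above and 9 below (background 20.8% and 9.33%), and in Med16/Taf13-AID in 8, 7 above and 1 below (34.4% and 3.4%). Of the called members 5, 8 and 5 were annotated genes without overlap. YGR259C, with a DMSO mean under 10 sense reads, is counted among those below in Spt20-AID and Med16/Spt20-AID. Its calls are a description only. In Med16/Taf13-AID the median difference was -0.010 for members and 0.72 for all 1501.

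The widest difference was that of TMN2 in Med16/Taf13-AID. It had 462, 578 and 517 antisense reads with 3-IAA, against 277, 342 and 299 with DMSO (log2 fold change 0.76 ± 0.17, SE, adjusted p = 1.9e-05), all 3-IAA libraries being above the DMSO libraries. On the sense strand it had 2, 1 and 2 raw reads with 3-IAA, against 22, 31 and 24 with DMSO, which is a 19.8-fold lower level (8.14 to 62.8, exact 95% interval for counting error only). The 2 strands of TMN2 moved in opposite directions, with a difference of 4.98 ± 0.46 (SE, adjusted p = 1.9e-18). In Med16/Spt20-AID the reverse was seen: antisense reads were 343, 321 and 278 with 3-IAA, against 565, 486 and 429 with DMSO (log2 fold change -0.65 ± 0.16, SE, adjusted p = 6.8e-04), and sense reads were 191, 165 and 164 with 3-IAA, against 106, 91.2 and 108 with DMSO (log2 fold change 0.77 ± 0.18, SE, adjusted p = 1.9e-04). Groups were apart on both strands, and the difference was -1.40 ± 0.16 (SE, adjusted p = 1.6e-13). In Spt20-AID antisense reads were 167, 196 and 275 with 3-IAA, against 138, 149 and 148 with DMSO (log2 fold change 0.55 ± 0.17, SE, adjusted p = 0.0085), and without replicate 3 the change was 0.34 and was not called (adjusted p = 0.19). The sense change was 0.67 ± 0.19, and the strands' difference did not pass (adjusted p = 0.6). The gene on the opposite strand behind TMN2, ARP10, is 1157 bases away with another gene between, and its sense reads changed by 0.056 in Med16/Taf13-AID (adjusted p = 0.89).

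GAL4, the activator of galactose genes, is covered whole by the annotated RNA YNCP0002W (chrXVI:79562-82648, plus strand), which was not among the counted identifiers. In Med16/Taf13-AID its antisense reads were 82.1, 90.9 and 82 with 3-IAA, against 161, 206 and 173 with DMSO (log2 fold change -1.08 ± 0.20, SE, adjusted p = 3.6e-07), and its raw sense reads were 3, 4 and 4, against 29, 52 and 36. The sense level was 13.7-fold lower (7.38 to 28.2), and the antisense reads fell less, with a difference of 2.65 ± 0.41 (SE, adjusted p = 2.9e-08). In Spt20-AID and Med16/Spt20-AID the difference had the other sign, at -0.65 ± 0.18 (adjusted p = 0.0022) and -0.50 ± 0.15 (adjusted p = 0.0073), with GAL4 sense reads of 112, 121 and 163 with 3-IAA, against 71.7, 67.2 and 53.3 with DMSO in Spt20-AID. With these, CSS1, MUM3, EMI1, HPF1 and FET4 passed in Med16/Taf13-AID with antisense above sense. CSS1 had 7 raw sense reads over the 3 libraries with 3-IAA, against 53 with DMSO, and MUM3, a gene of spore wall formation, had 6, against 27. The differences were 2.61, 2.15, 1.56, 0.91 and 0.78 in this order, FET4 encoding a low-affinity iron transporter. YJR087W, opposite EMC2, a gene of the membrane protein complex of the endoplasmic reticulum, was the one with antisense below sense (-0.96 ± 0.39, adjusted p = 0.043), a call lost without replicate 1 or 3 (adjusted p = 0.31 and 0.081) and with DESeq2 (0.085).

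PRY3 and CRF1 had the largest differences with antisense above sense in both strains of Spt20 depletion. In Med16/Spt20-AID, PRY3 had 384, 399.8 and 394 antisense reads with 3-IAA, against 255, 250.4 and 226 with DMSO (log2 fold change 0.69 ± 0.17, SE, adjusted p = 4.4e-04). Its sense reads were 116, 178 and 146 with 3-IAA, against 142, 223 and 174 with DMSO, and overlapped (log2 fold change -0.30 ± 0.17, SE, adjusted p = 0.11). The difference was 1.07 ± 0.18 in Spt20-AID (adjusted p = 1.9e-07) and 0.99 ± 0.17 in Med16/Spt20-AID (adjusted p = 1.7e-07). CRF1, a corepressor of ribosomal protein genes, had 16.3, 24.4 and 17.8 sense reads with 3-IAA in Med16/Spt20-AID, against 88, 87.8 and 75.4 with DMSO (log2 fold change -2.09 ± 0.25, SE, adjusted p = 1.2e-15). Its antisense reads were 322, 354 and 330.3 with 3-IAA, against 390.5, 318 and 307 with DMSO, and the groups overlapped. Here the sense strand moved and the antisense strand, with a change of -0.0099 ± 0.16, was not called, for a difference of 2.09 ± 0.23 (adjusted p = 4.7e-15) and one of 1.12 ± 0.26 in Spt20-AID (adjusted p = 3.0e-04).

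With antisense below sense in Spt20-AID, the rule named YGR259C and YNL276C, which lie opposite TNA1 and the homoserine acetyltransferase gene MET2. YGR259C had 18.8, 10.7 and 12.4 sense reads with 3-IAA, against 3.62, 4.15 and 5.77 with DMSO. It had a mean of 11.1 raw sense reads over all libraries and 8.33 over the DMSO libraries, so it was tested only through the libraries in which it was high, and no test is given for it. YNL276C had 27.8, 22.7 and 25.6 sense reads with 3-IAA, against 11.5, 12.4 and 8.65 with DMSO, for a difference of -1.82 ± 0.29 (adjusted p = 7.9e-08). On the sense strand of these identifiers all 3-IAA libraries were above the DMSO libraries, while the antisense changes were -0.44 and -0.54 and the changes of TNA1 and MET2 were -0.32 and -0.54. In Med16/Spt20-AID the difference at YNL276C was -1.36 (adjusted p = 5.0e-05). YSR3, which encodes a sphingoid base phosphate phosphatase, fell on the antisense strand, with 92.5, 72.1 and 104 reads with 3-IAA in Spt20-AID, against 178, 168 and 123 with DMSO (log2 fold change -0.80 ± 0.18, SE, adjusted p = 1.8e-04), and rose on the sense strand, with 12.8, 14 and 15.9, against 4.82, 11.6 and 6.73 (log2 fold change 0.94 ± 0.36, SE, adjusted p = 0.018). FRE5, a gene related to iron reductases, passed in both strains with antisense above sense (0.88 and 0.70). YSR3 and FRE5 were named after their values were seen.

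**Figure D4:**
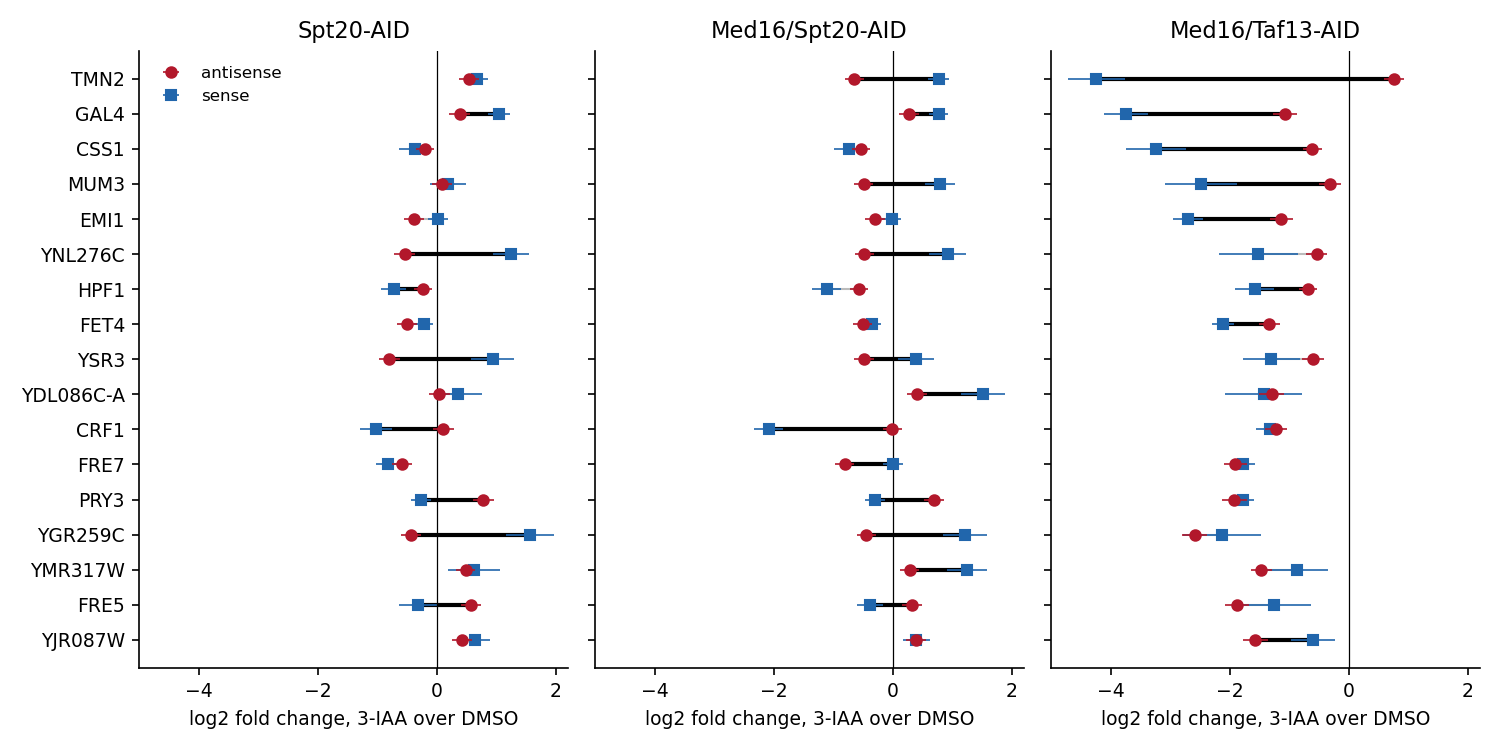
Antisense (red circles) and sense (blue squares) log2 fold changes, 3-IAA over DMSO, with standard errors, for the 17 members in which they differed in at least 1 strain, ordered by the difference in Med16/Taf13-AID. A black bar joins the strands where the difference passed in that strain, and the longest is that of TMN2 in Med16/Taf13-AID. YGR259C, with a DMSO mean under 10 sense reads, is shown as a description only.

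**Figure D5:**
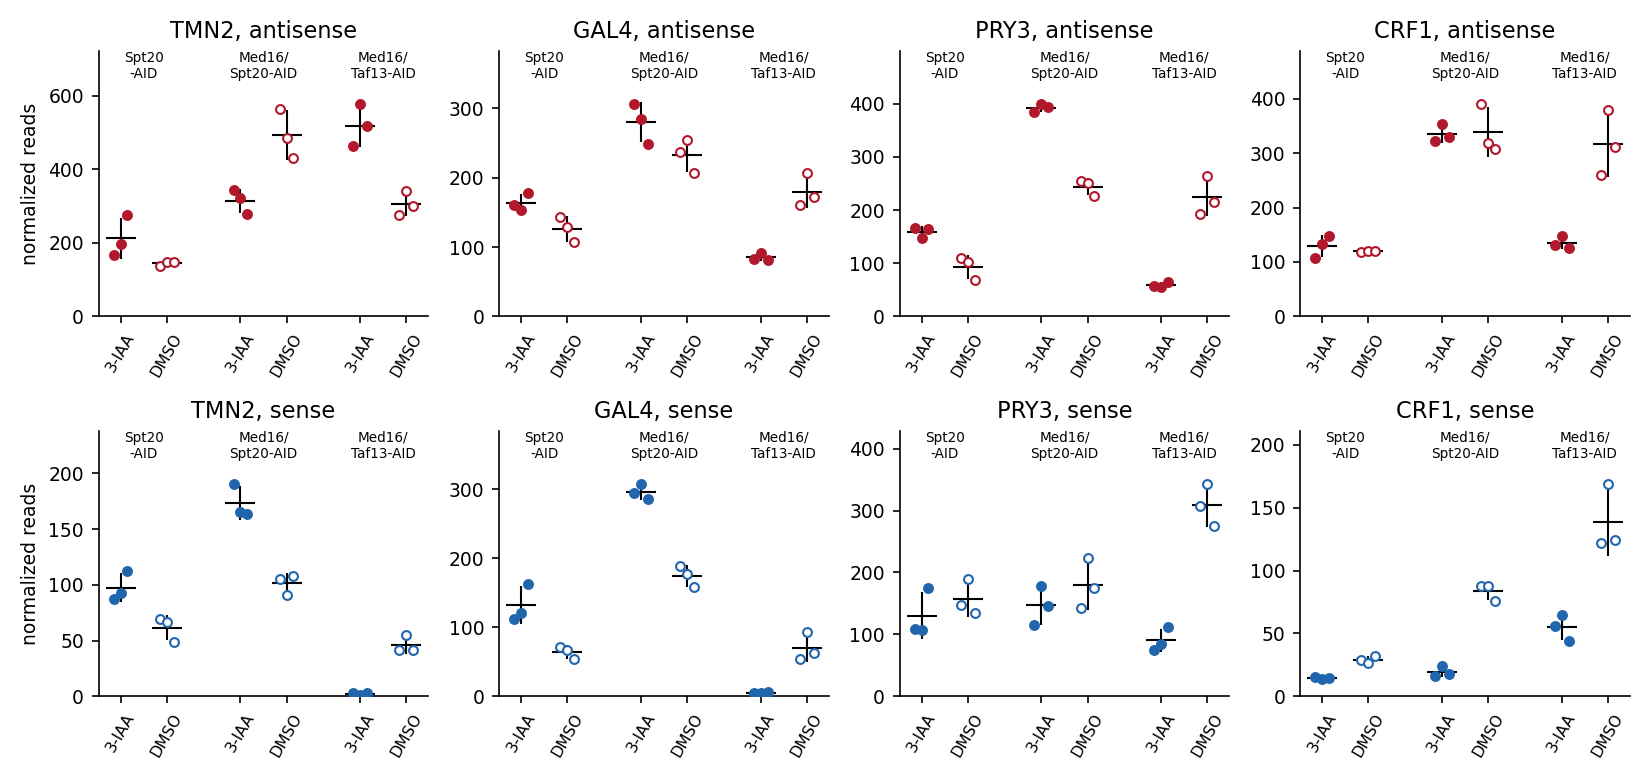
Normalized antisense (upper row) and sense (lower row) reads of TMN2, GAL4, PRY3 and CRF1 in every library, with 3-IAA filled and DMSO open, and the mean and SD of each group of 3. Antisense reads of TMN2 are above DMSO with 3-IAA in Med16/Taf13-AID, where its sense reads are near 0.

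Of 40 listed genes of meiosis and sporulation, 13 had more antisense than sense reads, as had 876 of the 6664 Y genes, and 3, IME4, NDT80 and SMK1, were members. Such genes are taken to be little transcribed in growing haploid cells. On the list, however, MSH5, SPO22 and ZIP1 had means of 278, 175 and 155 sense reads. The list does not hold SPO75 and MUM3, members described above as genes of sporulation and spore wall formation. IME4 had 324, 291 and 479 antisense reads with 3-IAA in Spt20-AID, against 293, 288 and 263 with DMSO (log2 fold change 0.37 ± 0.16, SE, adjusted p = 0.063), and its mean sense count over all libraries was 1.28 reads. In Med16/Taf13-AID it had 139, 139 and 120.1 with 3-IAA, against 355, 427 and 420.0 with DMSO (log2 fold change -1.59 ± 0.18, SE, adjusted p = 2.2e-17), which is a fall with the spike-in and a change of 0.065 with TMM. NDT80, the transcription factor of middle meiosis, had 277, 297 and 287 antisense reads with 3-IAA in Med16/Spt20-AID, against 206, 179 and 190.1 with DMSO (log2 fold change 0.58 ± 0.17, SE, adjusted p = 0.0039), and its sense change was 0.094 ± 0.25 (adjusted p = 0.74). SMK1, a kinase of spore wall assembly, had 308, 330.4 and 291 with 3-IAA, against 229.9, 238 and 197 with DMSO (log2 fold change 0.49 ± 0.17, SE, adjusted p = 0.015). NDT80 and SMK1 were higher in Spt20-AID too (adjusted p = 0.048 and 0.032). All 3 listed members were lower in Med16/Taf13-AID, where 61.9% of all tested were lower. Outside the list, SPO75 was lower there as well and MUM3 was not called. In Spt20-AID neither call was made without replicate 3 (adjusted p = 0.67 for NDT80 and 0.43 for SMK1) or with TMM scaling (0.76 and 0.67), and that of NDT80 was not made with the replicate block (adjusted p = 0.058). In Med16/Spt20-AID SMK1 was not called without any 1 of the replicates (adjusted p = 0.058 to 0.12), nor NDT80 without replicate 2 (0.0995), and with TMM scaling neither was called in this strain (0.063 for NDT80 and 0.23 for SMK1) or in Med16/Taf13-AID (0.62 and 0.092). Of 7 loci known for antisense RNA, GAL10 and ZIP2 also had more antisense than sense reads but too few for the 200, and PHO84, PHO5, KCS1 and CDC28 had fewer antisense than sense reads.

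RRT15 and TAR1 (chrXII:454696-455070, plus strand) share sequence with 25S rRNA, which RNA polymerase I transcribes. TAR1 matches the complement of RDN25-1 over all of its 375 bases and is present in 2 copies in the assembly. It still had a mean of 397 antisense reads per library, though only uniquely mapped reads were counted. The reason was not tested. RRT15 had 36602, 33918 and 34907 antisense reads with 3-IAA in Med16/Taf13-AID, against 41447, 38777 and 38509 with DMSO (log2 fold change -0.17 ± 0.14, SE, adjusted p = 0.26). Although the groups were apart, the change was not called, where the median member changed by -1.62, and with TMM scaling RRT15 had 1.48 (adjusted p = 2.7e-29). Its changes in Spt20-AID and Med16/Spt20-AID were -0.066 ± 0.14 and 0.11 ± 0.14, and neither was called. RRT15 held 29.2% to 30.1% of all antisense reads in Med16/Taf13-AID with 3-IAA, against 14.9% to 18.2% with DMSO.

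In Med16/Taf13-AID and Spt20-AID, whether TAR1 and YLR154W-F, whose systematic number places it beside TAR1, were called depended on replicate 2. YLR154W-F had 54.3, 46.7 and 67.4 antisense reads with 3-IAA in Med16/Taf13-AID, against 71.1, 384 and 38 with DMSO (log2 fold change -1.56 ± 0.22, SE, adjusted p = 4.2e-12), and its change without replicate 2 was 0.17 (adjusted p = 0.68). TAR1 had 246, 217 and 248 with 3-IAA, against 318, 985 and 190.1 with DMSO (log2 fold change -1.07 ± 0.17, SE, adjusted p = 1.8e-09), and its change without replicate 2 was -0.036 (adjusted p = 0.91). In both, DMSO replicate 2 was far above every other library of the strain. In Spt20-AID the DMSO library of replicate 2 was again the highest for both, with 256 and 556 reads. Without that replicate TAR1 had 0.74 (adjusted p = 0.0025), against -0.037 with it, and YLR154W-F had 0.54 (adjusted p = 0.048), against -0.11 with it. In Med16/Spt20-AID YLR154W-F had 298, 293 and 276 with 3-IAA, against 253, 140.2 and 107 with DMSO (log2 fold change 0.82 ± 0.17, SE, adjusted p = 4.1e-05), and was not called by DESeq2 (0.80, adjusted p = 0.34) or with TMM scaling (0.56, adjusted p = 0.055). Without replicate 1, 2 or 3 it stayed called, at 1.21, 0.70 and 0.60 (adjusted p = 3.5e-06, 0.022 and 0.039). TAR1 changed by 0.57 in this strain (adjusted p = 0.0026). Its call held without replicate 1 (adjusted p = 0.0013) and was lost without replicate 2 or 3 (0.12 and 0.077). How much rRNA remained in each library was not tested.

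Whether the response of antisense reads differed between strains was tested as an interaction. Between Med16/Spt20-AID and Spt20-AID it differed in 7 members, with 1 higher and 6 lower in Med16/Spt20-AID, where 0.195% and 0.974% of the 2053 tested were called. The 6 were YDL023C (-1.37 ± 0.22, SE, adjusted p = 6.5e-07), YOL150C, TMN2, YDL025W-A, YLR217W and YAL004W, and the 1 was YLR154W-F, whose difference of 0.93 was 0.16 without replicate 2 (adjusted p = 0.99) and 1.10 without replicate 3 (adjusted p = 0.14). The differences at YDL023C, YOL150C and TMN2 passed without each of the replicates, that at YLR217W passed only without replicate 1, and those at YDL025W-A and YAL004W were lost whichever 1 replicate was left out. With TMM scaling 17 were higher and 8 lower, beside 1.95% and 1.56%, and without replicate 2 the difference passed in 3 members. Between Med16/Taf13-AID and Med16/Spt20-AID it differed in 185, with 2 higher and 183 lower in Med16/Taf13-AID, where 1.22% and 67.9% were called, and TMM scaling gave 52 and 15, beside 22.8% and 4.14%. The 2 were YDL023C, not called without replicate 1 or 3 (0.61 and 0.60, adjusted p = 0.062 and 0.079), and TMN2 (1.41 ± 0.23, SE, adjusted p = 7.9e-09). On the sense strand, 1 of the 28 was higher and none lower in Med16/Spt20-AID against Spt20-AID (background 0.611% and 2.64%), and 1 was higher and 22 lower in Med16/Taf13-AID against Med16/Spt20-AID (0.449% and 93.9%). With TMM scaling these were 1 and 1 (8.19% and 7.24%), and 4 and 3 (20.3% and 14%).

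Genes whose products limit antisense RNA, a list of 18 that includes the exosome subunit RRP6, the poly(A) polymerase gene PAP2, the termination factors NRD1, NAB3 and SEN1 and the chromatin factors SET2, RCO1 and CHD1, were read on the sense strand. In Spt20-AID 17 of 18 were higher and none lower (median 0.47), in Med16/Spt20-AID 12 were higher and none lower (median 0.37), and in Med16/Taf13-AID 17 were lower and 1, NRD1, was higher (median -1.55). Of all 5567 genes tested, 54% were higher in Spt20-AID, 46.2% in Med16/Spt20-AID and 0.0719% in Med16/Taf13-AID, where 98.2% were lower, and the medians were 0.38, 0.31 and -1.68. With TMM scaling 2, 5 and 5 of the 18 were higher, beside 17.1%, 11.9% and 15% of all, and 1, 1 and 2 lower, beside 25.1%, 21.6% and 14.6%. NRD1, which acts in termination of short noncoding transcripts, changed by 0.45 ± 0.15 in Med16/Taf13-AID (SE, adjusted p = 0.0029). The part of these genes in the antisense changes was not tested.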

How the data were processed

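The 18 nsRNA-seq libraries (6 groups of strain and treatment, 3 each) were grouped by their labels. The authors aligned reads of a stranded kit to sacCer3 with STAR 2.6.1a and deposited raw counts of uniquely mapped reads per gene for both strands and for each strand, without normalization. Here the column of the read's own strand was taken as antisense and the opposite one as sense. Size factors of the S. pombe spike-in were recovered by least squares of the authors' mean normalized counts on the sense counts (1950 genes, median error 7.06e-05%).

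Counts were fitted with edgeR 4.0.16 in R 4.3.3 (quasi-likelihood test, 6 groups in one fit) for identifiers with a mean of at least 10 on that strand, and adjusted by Benjamini-Hochberg over all tested, calls being made under 0.05. Each SE is the size of the change over the root of its F value. The strand difference was fitted on both columns with the library as a block. The fits were tested on simulated data.

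The members and lists were chosen with earlier results of these data known. Named members are the 10 with the most antisense reads, the 3 largest called increases and decreases per strain with the same direction in all 3 pairs, the 2 largest strand differences per direction and strain, those on the meiosis and known antisense lists, and those at the limits of the rule. The paper states that cultures were split, and libraries with the same number were taken as pairs. The labels give the replicate number only, so this pairing is assumed. It was used to choose named members and in the replicate block, and not in the main fit. Same-numbered deviations correlated by -0.0253 to 0.126 on the antisense strand, all 3 below 0 in Med16/Taf13-AID, and by 0.0183 to 0.350 on the sense strand. P-values measure the spread between these cultures only, and floors or intervals cover counting error only. DESeq2 1.42.0, TMM, other filters, a replicate block and each replicate left out were tried. Python 3.11.15 and matplotlib 3.10.9 drew the figures. The RefSeq R64 annotation gave neighbors and coordinates for 5989 of 6692 identifiers.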

Additional observations from a re-analysis of the deposited data

Results flagged for a closer look

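When Med16/Spt20-AID was set against Spt20-AID, 7 members responded differently on the antisense strand by the test of the difference itself (edgeR, adjusted over all identifiers tested). The response was higher in Med16/Spt20-AID in 1 member, YLR154W-F, by 0.93 (log2), and by 0.16 without replicate 2 (adjusted p = 0.99), whose DMSO library of Spt20-AID was high. Without replicate 3 it was 1.10 and was not called (adjusted p = 0.14). It was lower in 6 members, by -1.37 at YDL023C (opposite GPD1), -1.33 at YOL150C (opposite GRE2), -1.20 at TMN2, -1.05 at YDL025W-A, -0.83 at YLR217W and -0.77 at YAL004W (opposite SSA1). Of these, YDL025W-A and YAL004W lost the call whichever 1 replicate was left out, and YLR217W lost it without replicate 2 or 3. Between Med16/Taf13-AID and Med16/Spt20-AID the response was higher in Med16/Taf13-AID in 2 members, by 0.68 at YDL023C and 1.41 at TMN2, and lower in 183. That at YDL023C was not called without replicate 1 or 3 (adjusted p = 0.062 and 0.079). The Med16/Taf13-AID libraries carry another sequencing project code, and strain and run cannot be told apart in the second of these comparisons.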

How the results depend on the processing

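With TMM scaling of the sense counts the antisense counts of members were 5 higher and 76 lower in Spt20-AID, 11 higher and 51 lower in Med16/Spt20-AID, and 31 and 17 in Med16/Taf13-AID, the sense counts were 5 higher and 8 lower in Spt20-AID, 8 lower for Med16/Spt20-AID, and 2 higher and 5 lower in Med16/Taf13-AID, and the response differed between strains in 25 and 67 members. Log2 fold changes that turned with this scaling were, in Med16/Taf13-AID, RRT15 1.48, YAL037C-B 1.00, YKL153W 0.93, YCR013C 0.84, YLR076C 0.62, YGL102C 0.19, YEL034C-A 0.18, YOL150C 0.13, IME4 0.065 and YGL123C-A 0.014, in Med16/Spt20-AID, RRT15 -0.19, IME4 -0.15, YGL102C -0.10 and YGL123C-A -0.048, and in Spt20-AID, IME4 -0.019. Without a filter on counts 25 members were higher on the antisense strand in Spt20-AID, 14 on the sense strand in Med16/Spt20-AID, and 2 higher and 40 lower on the sense strand in Med16/Taf13-AID. A mean of at least 50 left 3, 3 and 0 members higher and 9 lower in Med16/Taf13-AID on the sense strand, with strand differences in 5 members in Spt20-AID, 6 for Med16/Spt20-AID and 5 for Med16/Taf13-AID. A fit of each strain's libraries alone gave 107 higher on the antisense strand in Med16/Spt20-AID, with 13 higher and 15 lower in Spt20-AID. DESeq2 called 7 strand differences in Med16/Spt20-AID.

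Leaving out each replicate gave 4 to 51 members higher and 13 to 35 lower on the antisense strand in Spt20-AID, 8 to 31 higher and 20 to 23 lower in Med16/Spt20-AID, and 1 and 193 to 197 in Med16/Taf13-AID. On the sense strand it gave 4 to 11 and 2 to 6, 5 to 7 and 2 to 3, and 0 and 19 to 23 in the same order of strains. Strand differences passed in 6 to 9, 8 to 10 and 6 to 8 members, and the response differed between strains in 3 to 6 and 175 to 181. Small changes in Spt20-AID changed sign, over -0.22 to 0.068 at RRT15, -0.38 to 0.021 at YLR076C and -0.40 to 0.0097 at YGL123C-A (above 0 without replicate 2), and over -0.30 to 0.018 at YCR013C (above 0 without replicate 1). With the replicate block, 42 were higher and 21 lower in Spt20-AID, 52 higher and 31 lower in Med16/Spt20-AID, and 1 and 197 in Med16/Taf13-AID, no count moved by over 1.5 times, and the calls at YKL153W and NDT80 in Spt20-AID were the named ones lost. Without RRT15 and TAR1, an alternative chosen after seeing the data, the counts were 48 and 23, 60 and 33, and 1 and 196. For settings other than the spike-in and TMM the shares of all tested are not given, so these counts describe members only. The causes of these shifts were not tested, beyond the fewer samples or identifiers that some of the settings hold. The low sense counts of 172 members limit what can be said of that strand.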
